A study of Mus musculus with 4 samples.

Results

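Matrix proteases and their inhibitors were described here through 10 genes, Mmp2, Mmp8, Mmp12, Mmp13, Mmp14, Mmp19, Adam8, Timp1, Timp2 and Timp3, taken by symbol from the 31053 genes counted in single cells of mouse ovary. All 10 were counted in both libraries, with totals in kept cells between 472 UMIs for Mmp2 and 12521 for Timp2, where a UMI stands for 1 captured RNA molecule. The groups were ovaries labelled 15 months, from animals harvested at 14 to 17 months, and ovaries labelled 3 months, harvested at 2 to 3 months. All were virgin wild-type C57BL/6J mice, and their tissue was digested with collagenase IV and DNase I before CD45+CD11b+ cells were sorted and loaded on Chromium 3' chemistry. Each age had 3 hashtag pools, cell suspensions tagged with a barcoded antibody, which were joined before 1 sort and 1 library, and so an effect of age cannot be told apart from one of the library. Nothing in the labels ties a pool to separate days, and p-values measure only the spread between pools. The labels disagree on the animals: 2 for every pool, or 5 old animals of which 1 made up a pool by itself and 6 young ones.

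Matrix metalloproteinases are zinc enzymes that cut collagens, elastin, gelatin and other proteins of the extracellular matrix. Most are secreted as inactive zymogens, some sit in the membrane, and tissue inhibitors of metalloproteinases (TIMPs) block the active site. In the ovary this balance is known for its part in follicle rupture, corpus luteum regression and remodelling of the stroma, and macrophages and neutrophils are known sources of several of these enzymes. ADAM8 is a membrane-bound relative of leukocytes that sheds surface proteins.

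On the GRCm38 build with GENCODE M21 annotation, Mmp13 (chromosome 9, 7272514 to 7283331), Mmp12 (7344381 to 7369499) and Mmp8 (7558456 to 7568485) lie on the plus strand of 1 stretch of chromosome 9. Mmp13 ends 61.05 kb before Mmp12 with 0 protein-coding genes between them, and Mmp12 ends 189 kb before Mmp8 with 2 between. The other members are spread over the genome, with Mmp14 on chromosome 14 (54431612 to 54445364, plus strand) and Mmp2 on chromosome 8 (92827291 to 92853420, plus strand). Mmp19 (128790910 to 128800824) and Timp3 (86300372 to 86349506) are both on the plus strand of chromosome 10, Timp1 on that of X (20870166 to 20874735). Timp2 (chromosome 11, 118301069 to 118355740) and Adam8 (chromosome 7, 139978932 to 139992562) are on the minus strand. Some overlap another gene: Mmp19, with 653 UMIs in kept cells, overlaps Tmem198b on the opposite strand, which had 219, and the strand setting of the counting is not given in the sources used here. Of the other overlapping genes with a row in the files, none had more than 56 UMIs, the count of Syn3 across Timp3.

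Promoter windows of RefSeq (GRCm38.p6, from 250 bases before to 50 bases after the start) were given for 8 of the 10 members, with none for Mmp2 and Mmp19. The windows of 3 members are printed: Mmp14, which passed the age test in a cell class, at chr14:54431348-54431647, and the neighbours Mmp13 at chr9:7272264-7272563 and Mmp12 at chr9:7344147-7344446, which were high in different macrophage clusters. All 3 are on the plus strand, read 5′ to 3′, with motif letters in capitals.
Mmp14: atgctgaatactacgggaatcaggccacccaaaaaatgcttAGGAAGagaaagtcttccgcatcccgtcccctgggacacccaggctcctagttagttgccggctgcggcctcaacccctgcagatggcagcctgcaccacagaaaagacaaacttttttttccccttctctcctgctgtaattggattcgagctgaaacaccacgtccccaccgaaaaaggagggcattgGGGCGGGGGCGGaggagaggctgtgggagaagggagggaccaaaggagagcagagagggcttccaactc
Mmp13: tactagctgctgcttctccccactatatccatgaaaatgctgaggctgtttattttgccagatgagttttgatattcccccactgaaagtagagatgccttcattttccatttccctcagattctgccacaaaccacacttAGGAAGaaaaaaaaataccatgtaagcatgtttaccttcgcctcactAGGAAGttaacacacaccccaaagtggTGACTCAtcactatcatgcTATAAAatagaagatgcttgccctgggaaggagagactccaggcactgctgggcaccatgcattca
Mmp12: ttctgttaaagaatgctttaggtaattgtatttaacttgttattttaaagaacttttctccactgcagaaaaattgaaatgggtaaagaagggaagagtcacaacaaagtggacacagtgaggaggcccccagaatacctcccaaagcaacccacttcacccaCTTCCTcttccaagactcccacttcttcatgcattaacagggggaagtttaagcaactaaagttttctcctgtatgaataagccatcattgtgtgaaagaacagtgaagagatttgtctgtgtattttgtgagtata
The search covered both strands. The AP-1 motif was spelled TGANTCA and lies in 7.81% of the 32851 windows in the table. A GC box was spelled GGGCGG and lies in 35.7% of them. The TATA box was spelled TATAAA and lies in 13.6%, and the motif called PEA3, spelled AGGAAG, lies in 35.4%. The Mmp13 window held AP-1 letters 35 bases and TATA letters 16 bases before the start, with PEA3 letters 109 and 62 bases before it. The Mmp12 window held PEA3 letters 87 bases before the start and none of the other 3 motifs. The Mmp14 window held adjoining GC boxes 19 and 13 bases before the start, PEA3 letters 209 bases before it, and neither AP-1 nor TATA letters. These matches describe letters in a window and nothing more.

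The libraries held 4939 barcodes and 45060166 gene UMIs at 15 months and 3135 barcodes and 27277073 gene UMIs at 3 months, of which 4100 cells with 1 hashtag were kept at 15 months and 2181 at 3 months. Kept cells per pool were 767, 2437 and 896 at 15 months and 725, 479 and 977 at 3 months. The cells fell into 21 clusters formed without the 10 members, of which 15 were named by markers and 6 stayed numbered; 10 classes had at least 10 cells in all 6 pools and were tested. The 3-month library had more haemoglobin RNA, with 1 kept cell over 1% haemoglobin UMIs at 15 months and 32 at 3 months. Some classes lay outside the sorted identity: Ptprc, which encodes CD45, had a UMI in 19.9% of endothelial-like and 38.5% of cluster 7 cells. It had one in 17.4% of theca or luteal-like and 33.3% of epithelial-like cells. Itgam, which encodes CD11b, had a UMI in 13.8% of mature dendritic cell-like and 14.6% of cluster 9 cells. Cluster 7 was led by stroma markers, close in score to pericyte markers, and carried macrophage markers too, summing to 4828 to 7640 CPM over its 15-month pools and 1864 to 6068 CPM over its 3-month pools. CPM is UMIs scaled to a common total for the summed class, with TMM factors. The 2 libraries shared 2 kept barcodes.

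The members were highest in different cells. Among classes with at least 2 pools of an age, CPM was highest in neutrophil-like cells for Mmp8 and Adam8, in lipid-associated macrophage-like cells for Mmp19 and in macrophage-like cells for Mmp13. It was highest in cluster 7 for Mmp2, Mmp14 and Timp1, in endothelial-like cells for Timp3 and in cluster 18 for Timp2. Mmp12 was highest in cycling-like cells, through 1 cell described with that gene, and most of its UMIs came from lipid-associated macrophage-like cells. The class with the highest level did not always hold the most UMIs. Levels between classes are described and not tested.

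**Figure D1:**
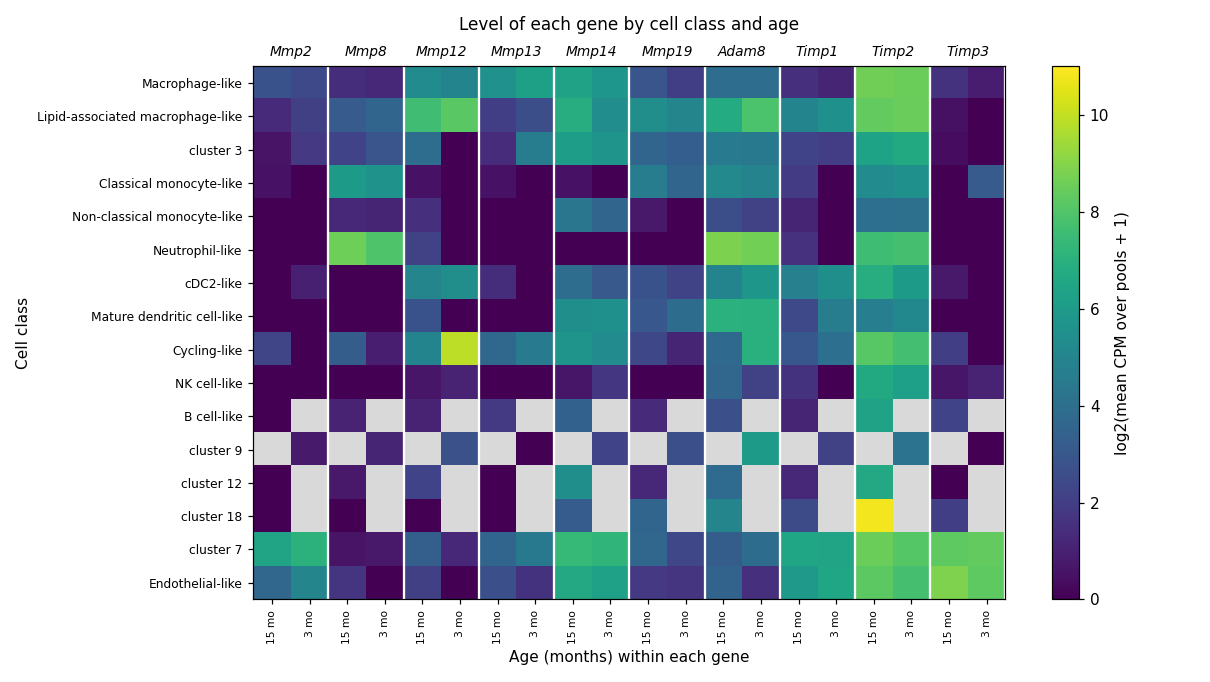
Mean level of each gene (log2 of CPM plus 1, colour) in each cell class, 15 months left of 3 months within each gene; grey marks an age with fewer than 2 pools of at least 10 cells. The brightest cell is Timp2 in cluster 18, whose 15-month pools 1 and 2 held 1872 and 1720 CPM from 11 and 22 cells.

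**Figure D2:**
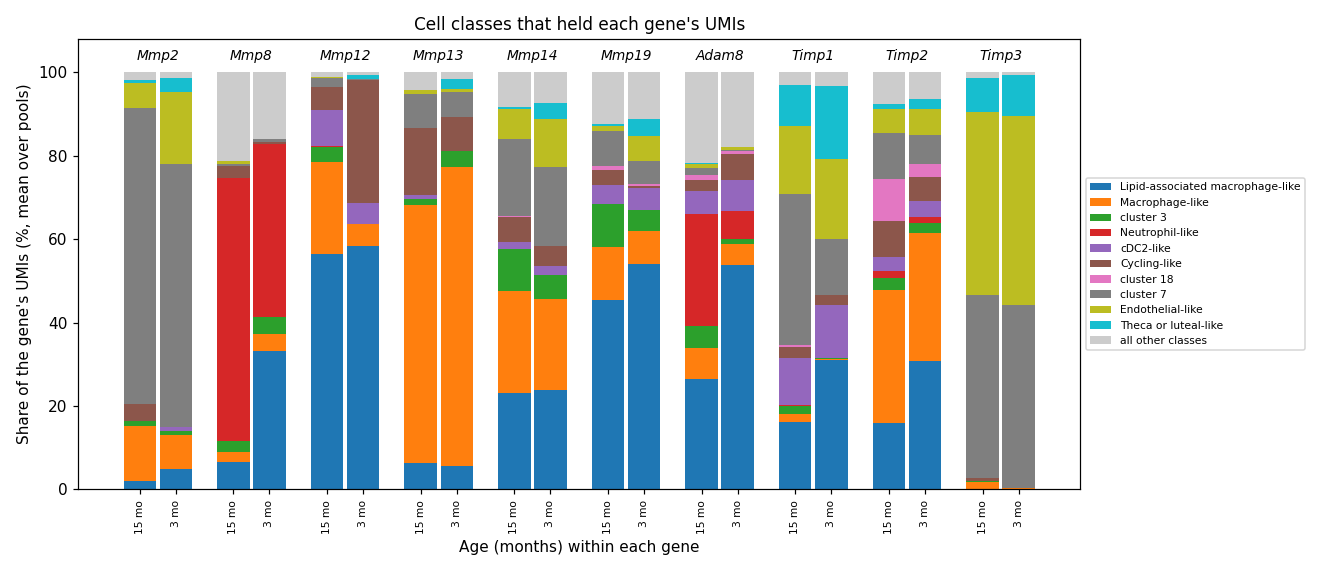
Share of each gene's UMIs (percent, mean over the 3 pools of an age) held by each cell class, 15 months left of 3 months. Cluster 7 held 70.8% of Mmp2 UMIs at 15 months and 62.9% at 3 months, and macrophage-like cells held 61.8% of those of Mmp13 at 15 months and 71.6% at 3 months.

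Across 11 fits, for all kept cells and the 10 classes, 45 of the 110 pairs of a member and a class passed the filter on low counts, 1 passed the threshold of 0.05 on the adjusted p of edgeR's quasi-likelihood test, and 10 had an unadjusted p under 0.05. That pair was Mmp14 in lipid-associated macrophage-like cells, higher at 15 months, and the next smallest adjusted p was 0.164. The pairs that passed the filter were those with enough UMIs and are not all the members. Among all genes of a class, the share called was 0.224% in all kept cells, 0.193% in lipid-associated macrophage-like cells, 0.127% in macrophage-like cells, 0.154% in cluster 3 and 0.177% in cDC2-like cells. It was 0.0212% in cycling-like cells, 0.106% in endothelial-like cells, 0.0164% in cluster 7, 0.619% in NK cell-like cells and 0.258% in neutrophil-like cells. It was 0.476% in non-classical monocyte-like cells, where no member passed the filter. Over all kept cells all 10 members were tested, with a median log2 ratio of -0.32 beside 0.02 over all genes, 4 positive and 6 negative. In lipid-associated macrophage-like cells 7 were tested, with a median of -0.41 beside 0.01.

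**Figure D3:**
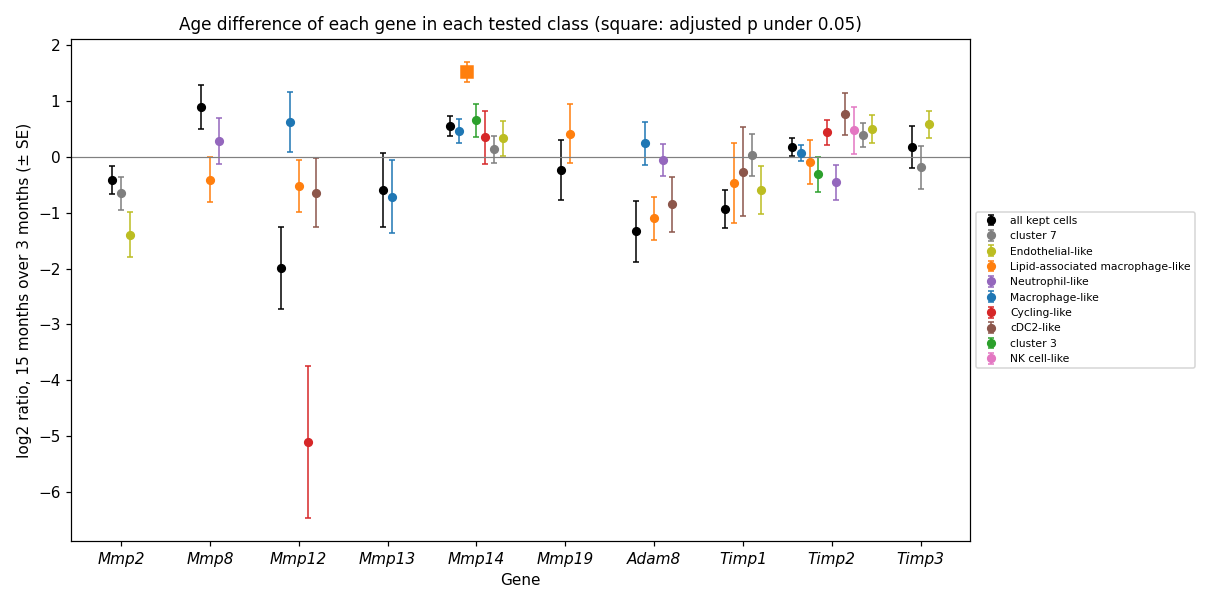
Log2 ratio of 15 months over 3 months (vertical axis, bars SE) for each gene in each class where it passed the filter, coloured by class. The square, Mmp14 in lipid-associated macrophage-like cells at 1.52, is the only value past the threshold; Mmp12 in cycling-like cells lies lowest at -5.11 with an SE of 1.36.

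Mmp14, the membrane-type enzyme that cuts collagen at the cell surface and activates pro-MMP2 in a complex with TIMP2, was higher at 15 months in lipid-associated macrophage-like cells. The 3 pools held 119, 118 and 102 CPM at 15 months, from 462 UMIs in 286 cells, and 38.6, 39.8 and 43.8 CPM at 3 months, from 143 UMIs in 308 cells. Every 15-month pool lay above every 3-month pool, which is so for 17.4% of the genes tested in these cells in either direction. The means, over n = 3 pools of each age, were 113 ± 9.31 CPM at 15 months and 40.8 ± 2.72 CPM at 3 months with their SDs. The log2 ratio was 1.52 ± 0.18 (SE) with an adjusted p of 0.0113 by edgeR. After thinning to 2000 UMIs a cell, 17.6 ± 10.2% of the cells had an Mmp14 UMI at 15 months and 5.44 ± 2.71% at 3 months; unthinned, the shares were 58.2% at 15 months and 28.2% at 3 months. The thinned shares of the pools overlapped, from 6.90 to 27.1% at 15 months and from 2.70 to 8.13% at 3 months, while thinning to 1000 UMIs gave 9.14 to 10.3% at 15 months and 2.72 to 5.41% at 3 months without overlap. Thinning to 2000 left out 6 of 286 cells at 15 months and 2 of 308 at 3 months, and the median depth was 12406 UMIs at 15 months and 10553.5 at 3 months. In NK cell-like cells, thinned alike, 0 of 197 cells at 15 months and 0 of 190 at 3 months had one, which allows shares of up to 1.52% at 15 months and 1.58% at 3 months. Their median depths were lower, 4089 UMIs at 15 months and 3070 at 3 months. Of the 14 genes called in these cells, 4 were haemoglobin genes, lower at 15 months. Erythroid markers summed to 17.7 to 19.1 CPM over the 15-month pools and 440 to 966 CPM over the 3-month pools, with 4 of 5 lower and 0 higher. The others, named after their values were seen, were AY036118 (log2 ratio 2.57), Aig1 (1.82), Prkcb (1.52), Neat1 (1.35) and mt-Atp8 (1.25), higher at 15 months, and Mgl2 (-2.21), Bcar3 (-2.00), Pmepa1 (-1.94) and Gm4610, lower. Mgl2 was among the 10 leading genes of the cDC2-like cluster, and mt-Atp8 is a mitochondrial gene. The median share of mitochondrial UMIs in kept cells ran from 2.31 to 2.71% over the 15-month pools and from 1.71 to 2.04% over the 3-month pools, without overlap. The part of these library differences in the Mmp14 value was not tested.

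The Mmp14 call depended on settings. It was lost with HTODemux hashtag calls (log2 ratio 1.65, adjusted p 0.0552) and without 15-month pool 1 (1.48, adjusted p 0.0714), 15-month pool 2 (1.51, 0.0662), 3-month pool 1 (1.45, 0.0615) or 3-month pool 2 (1.495, 0.165), all by edgeR. The call held with DESeq2 (1.51, adjusted p 1.49e-04). By edgeR it held with RLE scaling (1.52, 0.0117), stricter cell limits (1.45, 0.0155) and without 15-month pool 3 (1.57, 0.0491) or 3-month pool 3 (1.596, 0.00437). Lipid-associated macrophage-like cells also border on macrophage-like cells and cluster 3, and summing the 3 gave a log2 ratio of 0.87 with an adjusted p of 0.135, a choice made after the data were seen. They made up 9.26, 7.63 and 3.24% of the 15-month pools and 20.3, 25.9 and 3.79% of the 3-month pools.

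**Figure D4:**
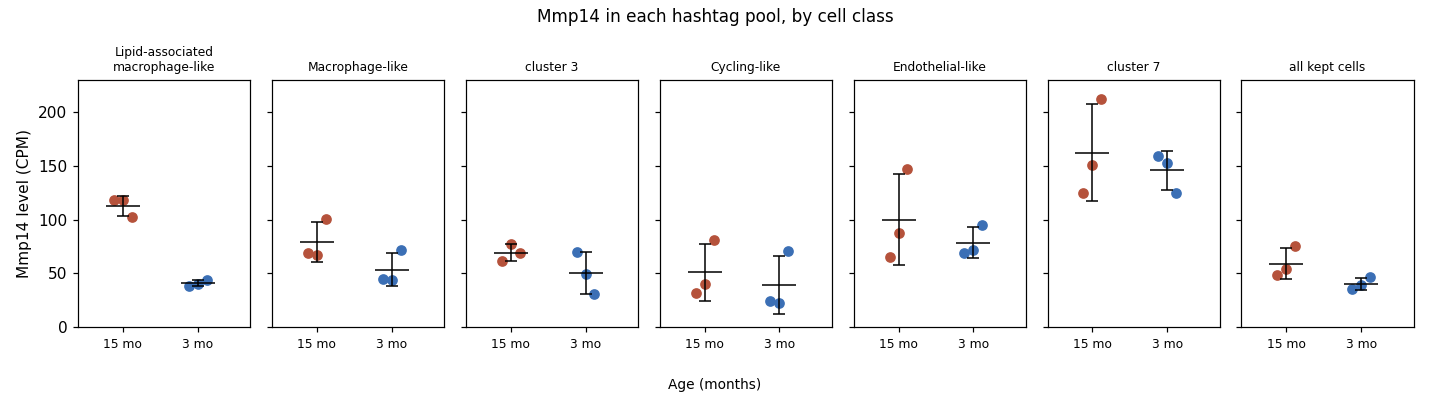
Mmp14 level (CPM) in each hashtag pool (dots), with the mean and SD (lines), 15 months left of 3 months, in 6 classes and all kept cells. In lipid-associated macrophage-like cells the 15-month pools sit between 102 and 119 and the 3-month pools between 38.6 and 43.8; in cluster 7 the ages overlap.

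In macrophage-like cells the Mmp14 pools held 69.2, 67.2 and 101 CPM at 15 months and 45.0, 44.0 and 71.6 CPM at 3 months, which overlap, with a log2 ratio of 0.47 ± 0.22 (SE, adjusted p 0.582). Their shares of cells with an Mmp14 UMI, not tested, did not overlap after thinning to 2000 UMIs, at 12.9 to 15.9% over the 15-month pools and 2.86 to 9.45% over the 3-month pools, nor unthinned, at 35.3 to 55.4% at 15 months and 14.4 to 30.04% at 3 months. They overlapped after thinning to 1000 UMIs, at 7.75 to 11.5% at 15 months and 3.33 to 9.87% at 3 months. The median depth of these cells was 10598 UMIs at 15 months and 7240 at 3 months, and its part in the unthinned shares was not tested. Thinning to 2000 left out 21 of 637 cells at 15 months and 56 of 433 at 3 months. The age effect in macrophage-like cells minus that in lipid-associated macrophage-like cells was -0.95 ± 0.30 on the log2 scale, with an unadjusted p of 0.00759 and an adjusted p of 0.827 by edgeR. Of the 8 members tested for that difference 0 were called by edgeR or DESeq2, beside 0.0245% of all genes by edgeR, and Mmp14 alone had an unadjusted p under 0.05; against non-classical monocyte-like cells 0 of the 4 with an estimate were called, beside 0.0723%, and 0 had an unadjusted p under 0.05. Cluster 7 had the highest Mmp14 level, with 124, 151 and 212 CPM at 15 months and 160, 153 and 125 CPM at 3 months, and its ages overlapped. Over both ages endothelial-like cells came next at 89.4 ± 30.7 CPM (SD over 6 pools), then lipid-associated macrophage-like cells at 76.9 ± 40.0 CPM and macrophage-like cells at 66.2 ± 20.8 CPM. Each of these ranges met that of its neighbour in the order. In all kept cells the 15-month pools held 48.3, 54.0 and 75.1 CPM and the 3-month pools 35.8, 38.8 and 46.6 CPM. These did not overlap, as was so for 26.4% of all genes there, and the log2 ratio of 0.55 ± 0.18 did not pass the test (adjusted p 0.169). In such sums a different mix of cells and a different level per cell cannot be told apart.

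Mmp12, the macrophage elastase, was found in few cells. In all, 290 kept cells (4.62%) had a UMI, and the tenth of them with the most UMIs held 67.8% of the total. Lipid-associated macrophage-like cells held 56.5 ± 8.1% of its UMIs at 15 months and 58.2 ± 23.8% at 3 months (SD over the 3 pools). Their pools had 84.3, 357 and 155 CPM at 15 months and 169, 312 and 394 CPM at 3 months, which overlap, with a log2 ratio of -0.51 ± 0.47 (adjusted p 0.704). In cycling-like cells the pools held 53.4, 33.4 and 4.27 CPM at 15 months and 479, 2383 and 10.8 CPM at 3 months. The value of 2383 came mostly from 1 cell, which held 593 of the 644 Mmp12 UMIs of its pool and class. The log2 ratio was -5.11 ± 1.36 (adjusted p 0.302), and without that cell -3.15 ± 0.91 (adjusted p 0.281); without 3-month pool 3 it was -5.72 and passed the test (adjusted p 0.00622). In all kept cells the 15-month pools held 25.2, 50.1 and 20.4 CPM against 97.0, 267 and 27.6 CPM in the 3-month pools (log2 ratio -1.99 ± 0.73, adjusted p 0.196). The same cell held 593 of the 1211 Mmp12 UMIs of 3-month pool 2, and without it that log2 ratio was -1.41 ± 0.56 (adjusted p 0.221). After thinning, 9.94 ± 3.92% of lipid-associated macrophage-like cells had an Mmp12 UMI at 15 months and 10.8 ± 7.12% at 3 months. Unthinned, the shares were 23.1% at 15 months and 16.4% at 3 months. Thinned to 1000 UMIs they were 8.05% at 15 months and 4.63% at 3 months. The 15-month mean was higher unthinned and at 1000 UMIs, and lower only in the first of these comparisons, by less than either SD. The cause of this change of order was not tested. Among thinned NK cell-like cells 0 of 197 had an Mmp12 UMI at 15 months and 1 of 190 at 3 months.

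Mmp13, the rodent interstitial collagenase, was highest in macrophage-like cells, at 61.0 ± 37.7 CPM over the 6 pools. The pools held 83.7, 53.4 and 1.63 CPM at 15 months and 85.1, 104 and 37.7 CPM at 3 months. In 3-month pool 2 a single cell held 21 of the 57 Mmp13 UMIs of this class. The third 15-month pool was far below the other 5, and the ages overlapped (log2 ratio -0.71 ± 0.66, adjusted p 0.813). Next came cycling-like cells at 16.9 ± 11.3 CPM, whose range met that of macrophage-like cells. After thinning, 7.58 ± 7.53% of macrophage-like cells had a UMI at 15 months and 9.07 ± 5.33% at 3 months, and 0 of the NK cell-like cells did; unthinned, the shares in macrophage-like cells were 15.5% at 15 months and 15.7% at 3 months. Although Mmp12 and Mmp13 are neighbours on chromosome 9, Mmp12 was at 245 ± 126 CPM in lipid-associated macrophage-like cells and 34.5 ± 21.0 CPM in macrophage-like cells, whereas Mmp13 was at 4.20 ± 3.52 CPM in the first of these classes.

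Mmp8, the neutrophil collagenase, was highest in neutrophil-like cells. Their pools held 474, 226 and 445 CPM at 15 months and 219, 69.9 and 459 CPM at 3 months, which overlap (log2 ratio 0.28 ± 0.42, adjusted p 0.916). Neutrophil-like cells numbered 92, 181 and 82 at 15 months and 63, 11 and 36 at 3 months, so that the 69.9 CPM rests on 11 cells. In 15-month pool 3 a single cell held 32 of the 88 Mmp8 UMIs of this class. Classical monocyte-like cells, with 57.5 ± 14.4 CPM over 5 pools, came next. Neutrophil-like cells held 63.0 ± 13.8% of Mmp8 UMIs at 15 months and 41.4 ± 30.4% at 3 months. Over all kept cells the pools held 18.7, 6.76 and 14.3 CPM at 15 months and 9.46, 5.95 and 5.56 CPM at 3 months (adjusted p 0.262).

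Adam8, the leukocyte sheddase, had its highest level in neutrophil-like cells, with 586, 377 and 410 CPM at 15 months and 557, 349 and 296 CPM at 3 months. These overlapped, with a log2 ratio of -0.06 ± 0.29 (adjusted p 0.992) although the means were 458 CPM at 15 months and 401 CPM at 3 months, so the fitted sign and that of the means differ. Neutrophil-like cells held 26.8 ± 14.2% of Adam8 UMIs at 15 months and 6.52 ± 4.18% at 3 months, with SDs over the 3 pools. The share held by lipid-associated macrophage-like cells was 26.6 ± 7.42% in 15-month pools and 53.8 ± 23.1% in 3-month pools. In lipid-associated macrophage-like cells the pools held 66.7, 156 and 100 CPM at 15 months and 357, 243 and 112 CPM at 3 months. Pools 1 and 2 of 3 months were above all others and pool 3 was not, and the log2 ratio of -1.10 ± 0.38 did not pass the test (adjusted p 0.305). Over all kept cells the values were 39.2, 43.2 and 35.1 CPM at 15 months and 152, 123 and 24.4 CPM at 3 months (log2 ratio -1.33 ± 0.55, adjusted p 0.233). Without 3-month pool 3 it was -1.80 with an adjusted p of 0.0259 by edgeR. In cycling-like cells, where Adam8 did not pass the filter, the pools ran from 3.56 to 22.8 CPM at 15 months and from 13.5 to 214 CPM at 3 months, with overlap. It was called there without 3-month pool 3 (log2 ratio -3.79, adjusted p 0.00162) and with no filter on low counts (-3.19). Lipid-associated macrophage-like cells were likewise a larger share of 3-month pools 1 and 2 than of pool 3, and the part of this was not tested. Mature dendritic cell-like cells had 126 ± 44.4 CPM over 5 pools.

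Mmp19, a secreted enzyme with basement membrane substrates, was highest in lipid-associated macrophage-like cells. The pools held 48.1, 61.3 and 16.4 CPM at 15 months and 58.6, 30.01 and 3.98 CPM at 3 months, with overlap and a log2 ratio of 0.42 ± 0.53 (adjusted p 0.799). In 15-month pool 1 a single cell held 16 of the 49 Mmp19 UMIs of this class. In both ages pool 3 was lowest, with 29 cells of this class at 15 months and 37 at 3 months. These values rest on few UMIs, which a low level itself gives. A shared pool number does not pair the ages.

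Mmp2, gelatinase A, was highest in cluster 7 and is a product of stromal cells. The pools of cluster 7 held 106, 68.4 and 81.9 CPM at 15 months and 151, 157 and 86.0 CPM at 3 months, which overlap (log2 ratio -0.65 ± 0.30, adjusted p 0.496). In endothelial-like cells they held 8.49, 9.79 and 15.9 CPM at 15 months and 30.2, 33.4 and 29.99 CPM at 3 months. All 15-month pools were below all 3-month pools, but these values rest on 16 UMIs at 15 months and 36 at 3 months, and the log2 ratio of -1.39 ± 0.40 did not pass the test (adjusted p 0.164). In these cells 20.6% of all genes had no overlap between ages, and stroma markers summed to 429 to 589 CPM at 15 months and 473 to 1001 CPM at 3 months, a difference whose part was not tested. No cell class of the neutrophil or NK type had an Mmp2 UMI.

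**Figure D5:**
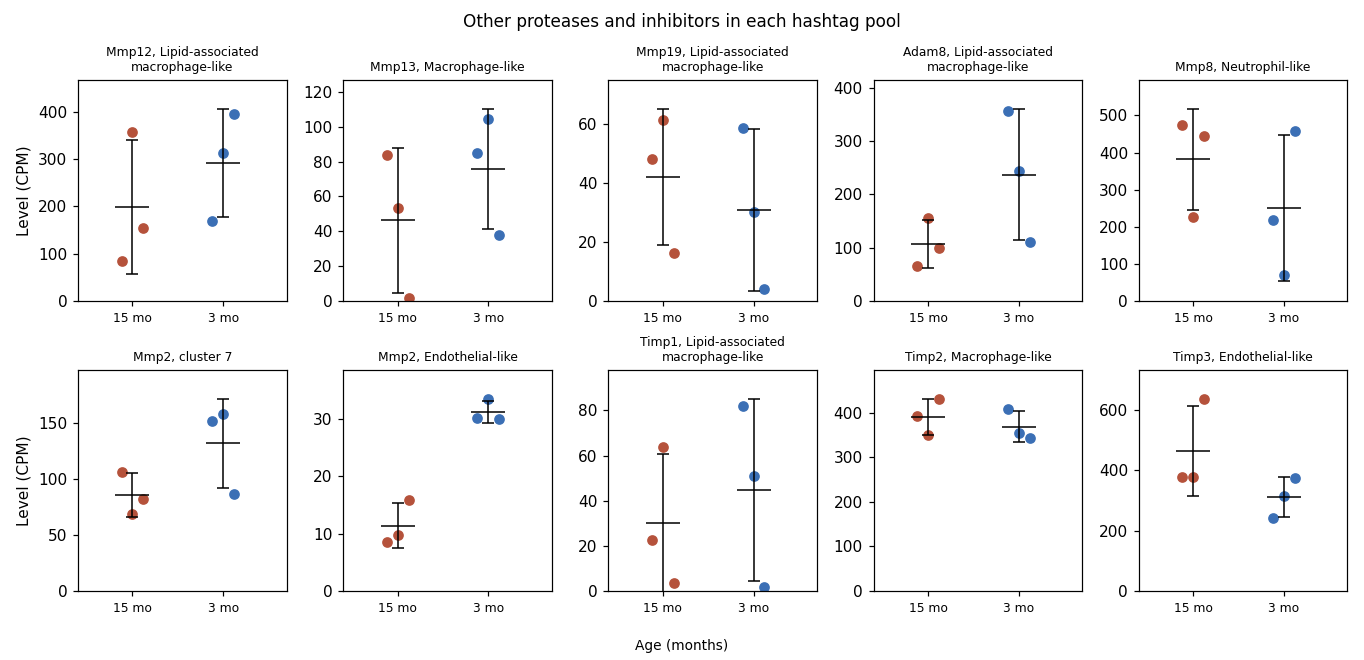
Level (CPM) of the other 9 genes in each hashtag pool (dots) in the class or classes where each was described, with the mean and SD (lines), 15 months left of 3 months; a lower SD limit under 0 is not drawn. In endothelial-like cells the 15-month Mmp2 pools sit between 8.49 and 15.9 and the 3-month pools between 29.99 and 33.4, while most other panels overlap.

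Among the inhibitors, Timp3, which binds to the matrix and also blocks ADAM enzymes, was held mostly by cluster 7, endothelial-like and theca or luteal-like cells. Endothelial-like cells held 376, 377 and 636 CPM at 15 months and 241, 315 and 375 CPM at 3 months. The lowest 15-month pools were just above the highest 3-month pool, and 20.6% of all genes had no overlap between ages in these cells. The log2 ratio of 0.58 ± 0.25 did not pass the test (adjusted p 0.341). Cluster 7 held 448, 155 and 307 CPM at 15 months and 261, 460 and 272 CPM at 3 months, with overlap and a log2 ratio of -0.19 ± 0.38 (adjusted p 0.909). In 15-month pool 1 a single cell of 36122 UMIs held 94 of the 198 Timp3 UMIs of cluster 7. Theca or luteal-like cells had 155 CPM in 15-month pool 2 and 97.6 CPM in 3-month pool 3, the pools with 10 cells or more, and 6 of 14 epithelial-like cells of 15-month pool 2 had a Timp3 UMI. Among the other classes with at least 2 pools of an age, classical monocyte-like cells were highest at 3.18 ± 7.11 CPM, from 2 UMIs. After thinning, 52.9 ± 9.65% of endothelial-like cells had a Timp3 UMI at 15 months and 28.7 ± 3.27% at 3 months; unthinned, the shares were 78.7% at 15 months and 65.7% at 3 months. Thinned to 1000 UMIs they were 34.4 ± 3.28% at 15 months and 31.5 ± 6.65% at 3 months and overlapped. At 3 months 27 of 79 endothelial-like cells had a Timp3 UMI thinned to 1000 UMIs, and 23 of 79 thinned to 2000. Fewer cells at the greater depth show that the random draw of thinning itself moves these shares. Among thinned NK cell-like cells 0 of 197 had one at 15 months and 1 of 190 at 3 months.

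Timp1, the soluble inhibitor that cells induce with inflammation, was highest, among classes with at least 2 pools of an age, in cluster 7, with 124, 49.9 and 98.0 CPM at 15 months and 105, 87.0 and 63.5 CPM at 3 months (log2 ratio 0.04 ± 0.37, adjusted p 0.988). In 15-month pool 1 a single cell of 36122 UMIs held 32 of the 55 Timp1 UMIs of cluster 7. Endothelial-like cells came next at 75.0 ± 38.5 CPM, and the ranges of the 2 met. In lipid-associated macrophage-like cells the pools held 22.6, 63.8 and 3.65 CPM at 15 months and 81.8, 50.9 and 1.99 CPM at 3 months, with pool 3 lowest in both ages. That pool had 29 cells and 537401 UMIs of this class at 15 months and 37 cells and 477623 UMIs at 3 months. The low values of that pool rest on few Timp1 UMIs, which a low level itself gives. A shared pool number does not pair the ages. In all kept cells the values were 19.2, 21.3 and 15.6 CPM at 15 months and 39.9, 51.6 and 18.7 CPM at 3 months (log2 ratio -0.94 ± 0.34, adjusted p 0.190). Leaving out 3-month pool 3 gave -1.27 with an adjusted p of 0.0396. Theca or luteal-like cells, where only 1 pool of each age had 10 cells or more, held 117 CPM at 15 months and 129 CPM at 3 months.

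Timp2, the inhibitor that also takes part in activating pro-MMP2, was the most widespread of the 10, with a UMI in 43.2% of kept cells. In macrophage-like cells the pools held 393, 349 and 430 CPM at 15 months and 409, 354 and 344 CPM at 3 months. The log2 ratio was 0.07 ± 0.14 (adjusted p 0.945), the smallest SE of any pair tested. Cluster 18, an unnamed cluster of 41 cells, had 1872 and 1720 CPM in 15-month pools 1 and 2, above the ranges of all other classes, with no 3-month value. These pools had 11 and 22 cells of the cluster, and 1 cell of pool 1 held 85 of the 286 Timp2 UMIs there. Of the 33 thinned cells of cluster 18, 31 had a Timp2 UMI. The shares after thinning were 51.1 ± 7.92% at 15 months and 49.2 ± 5.56% at 3 months in macrophage-like cells, and 17.1 ± 7.59% at 15 months and 12.9 ± 8.98% at 3 months in NK cell-like cells. Unthinned, macrophage-like cells had 82.8% at 15 months and 76.8% at 3 months.

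The other genes of the pathway were 67 further proteases, inhibitors, activators and substrates, which gave 248 tested pairs of a gene and a fit, 2 called higher and 1 lower. These were 1 of 50 tested in all kept cells, beside 0.224% of all genes, and 1 of 16 in cDC2-like cells, beside 0.177%. The call in NK cell-like cells was 1 of 9, beside 0.619%. In all kept cells 50 were tested, 29 with a positive and 21 with a negative log2 ratio, and their median was 0.08 beside 0.02 over all genes. Adamdec1, an ADAM-like protease of tissue macrophages, was higher in all kept cells, with 11.6, 4.48 and 12.5 CPM at 15 months and 0.371, 0 and 0.355 CPM at 3 months (log2 ratio 5.05 ± 0.69, adjusted p 0.0415 by edgeR). Its 3-month pools were at or near 0, so the fitted ratio depends on the prior count. Fn1, which encodes the matrix protein fibronectin, was higher in cDC2-like cells, with 302, 259 and 334 CPM at 15 months and 54.5, 143 and 88.3 CPM at 3 months (1.65 ± 0.26, adjusted p 0.0217). Cst3, the cathepsin inhibitor cystatin C, was lower in NK cell-like cells, with 194, 241 and 228 CPM at 15 months and 327, 451 and 559 CPM at 3 months (-0.98 ± 0.20, adjusted p 0.0430). In non-classical monocyte-like cells Cst3 was at 6605 ± 1113 CPM at 15 months and 7213 ± 903 CPM at 3 months. The part of RNA from other cells in the NK cell-like values was not tested. Mmp9, the gelatinase of neutrophils, was at 1399 ± 359 CPM at 15 months and 1244 ± 288 CPM at 3 months in neutrophil-like cells. Slpi, an inhibitor of neutrophil elastase, was at 2932 ± 890 CPM at 15 months and 3427 ± 1648 CPM at 3 months in the same cells. Lrp1, the receptor that takes up protease and inhibitor complexes, was highest in lipid-associated macrophage-like cells, at 357 ± 42.4 CPM at 15 months and 279 ± 47.0 CPM at 3 months. The collagen genes Col1a2 and Col3a1 were highest in cluster 7, beside Mmp2 and Timp1.

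The genes whose pattern was most like that of a member were found by Pearson's r of log2(CPM + 1) over 60 points, the 6 pools of 10 classes, among 8799 genes. These points share libraries and depth, and r is a description. Nearest to Mmp14 were Fuom (0.918) and Nrp1 (0.896), and nearest to Mmp2 the stromal proteoglycan gene Lum (0.928). Nearest to Timp3 were Tmem47 (0.984) and the laminin gene Lama4 (0.981), to Timp2 the tetraspanin gene Cd63 (0.846), and to Timp1 Cgnl1 (0.839). Nearest to Mmp8 were AC110211.1 and the arginase gene Arg2 (both 0.870), to Adam8 Card19 (0.812) and Ptgs2 (0.794), and to Mmp19 the fibronectin gene Fn1 (0.752). Mmp12 had Slc37a2 (0.745) and the lipoprotein lipase gene Lpl (0.740), and Mmp13 the chemokine gene Ccl12 (0.768). Between members the highest r was that of Mmp2 and Timp3, 0.854.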

How the data were processed

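Single-cell RNA was counted in 1 library per age, each with 3 hashtag pools as replicates. The deposited matrices hold raw UMI counts per gene and hashtag, unnormalized, per the file headers and the values; the headers name Cell Ranger 4.0.0, whereas mm10, FastQC 0.11.4 and Cell Ranger 7.0.0 stand in the submitters' processing notes. Barcodes with at least 500 genes, 1000 UMIs and at most 10% mitochondrial UMIs, and a top hashtag of at least 10 counts and 3 times the second, were kept. They were clustered in scanpy 1.11.5 (2000 variable genes without the members, 30 components, 15 neighbours, leidenalg 0.10.2, resolution 0.6); naming limits were set after the clusters were seen. Scrublet marked 1 kept cell at 15 months and 3 at 3 months, so it did not work and doublets within a pool stay in. Counts were summed per pool and class and tested, 15 over 3 months, with edgeR 4.0.16 in R 4.3.3 (filterByExpr, TMM, quasi-likelihood, Benjamini-Hochberg over all genes of a class, threshold 0.05); differences between classes were tested as an interaction with the pool as block. The fit was tested on simulated data. Depth per pool was 5738569, 25840364 and 8183676 UMIs at 15 months and 5824895, 4627201 and 8726459 at 3 months; limits for a count of 0 use 3 counts and cover counting error only. Pools of 1 age differed by more than counting error (chi-square over degrees of freedom 8.66 to 26.8). Alternatives used DESeq2 1.42.0, RLE scaling, no filter, HTODemux of Seurat 5.3.0, stricter cell limits, other clusterings, cell by cell placing and pools left out. Genes named were all members, pathway genes past the threshold or highest in their subgroup, and genes from the 3 most like each member, not all of which are reported here. Members and lists were chosen with earlier results of these data known.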

Additional observations from a re-analysis of the deposited data

How the results depend on the processing

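Each age is 1 library, pools are few, and 65 member and class pairs had too few UMIs to pass the filter and were not tested. Over the 11 fits 118 genes and 1 member pair were called. DESeq2 called 720 genes, no filter on low counts 1600, and HTODemux 77 over the 9 fits it allowed (116 in the main fits of these). Leaving out a pool gave 82 to 365, the highest without 3-month pool 3. Member pairs called were 5 without a filter, 0 with HTODemux and 0 to 5 with a pool left out. The pool numbers did not pair the samples (same-numbered pools correlated at -0.06, 0.06 and 0.12), and with a replicate block 312 genes were called and Mmp14 in lipid-associated macrophage-like cells had a log2 ratio of 1.52 (adjusted p 0.0493). That ratio ran from 1.45 to 1.596 with a pool left out (adjusted p 0.00437 to 0.165), and was 1.65 with HTODemux and 0.87 in the 3 summed macrophage clusters, where the call was lost. Redrawing the class lowered it, to 1.12 at resolution 1.0 (adjusted p 0.0232) and 1.27 when clustered again without Scrublet doublets (0.0117), called in both. Cells in both the main and the redrawn class, over cells in either, were a fraction of 0.559 at resolution 1.0 and 0.692 when clustered again. The ratio could not be given where cells were placed one by one. No member was called for a difference between classes in any of the 12 alternatives run (0 to 0 with a pool left out). Without a filter, Mmp12 in cycling-like cells (adjusted p 5.20e-74), Adam8 in lipid-associated macrophage-like cells (1.91e-04) and Mmp13 in macrophage-like cells (0.0464) also passed, as did Adam8 in cycling-like cells (7.87e-20), a pair that the filter left out and that was called too without 3-month pool 3 (0.00162). The SE without a filter was 0.27 for Mmp12 in cycling-like cells, where 1 cell held 593 of the 644 UMIs of 3-month pool 2. For Adam8 in cycling-like cells it was 0.32. SEs of that size do not hold the spread between the pools given above, so neither p-value without a filter measures it. For Mmp13 in macrophage-like cells (0.20) and Adam8 in lipid-associated macrophage-like cells (0.23) the SEs without a filter were below those with it. Their p-values without a filter therefore take in less of that spread. Of 66 values of the share of cells with a UMI, taken at other depths and settings, 23 moved by more than the SD over pools, those of Timp3 in endothelial-like and Adam8 in neutrophil-like cells among them. The causes were not tested.

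Of 47 age effects, 20 changed sign under some alternative, none of them called, in 40 of 718 values. With a pool left out the log2 ratios ran as follows. In all kept cells Mmp19 ran from -0.74 to 0.23 and Timp3 from -0.0764 to 0.51. Mmp14 ran from -0.10 to 1.10 in cycling-like cells, from -0.0321 to 0.53 in endothelial-like cells and from -0.0879 to 0.27 in cluster 7, and its macrophage-like minus non-classical monocyte-like difference from -1.26 to 0.14. Timp1 ran from -1.65 to 0.13 in lipid-associated macrophage-like cells, from -1.56 to 2.26 in cDC2-like cells and from -0.25 to 0.39 in cluster 7. Timp2 ran from -0.48 to 0.40 in lipid-associated macrophage-like cells and from -0.57 to 0.0303 in cluster 3, and Timp3 from -0.58 to 0.16 in cluster 7. Mmp12 ran from -0.12 to 1.79 in macrophage-like cells and from -1.55 to 0.15 in cDC2-like cells. Adam8 ran from -0.0139 to 0.48 in macrophage-like, from -0.27 to 0.25 in neutrophil-like and from -1.40 to 0.0182 in cDC2-like cells. In lipid-associated macrophage-like cells Timp2 turned to 0.049 with the replicate block, 0.0226 with HTODemux, 0.0409 when clustered again and 0.0523 in the summed clusters, where Mmp19 turned to -0.16; Timp1 turned to 0.0841 at resolution 1.0. Adam8 in neutrophil-like cells turned to 0.12 without a filter and 0.0169 with the block. With cells placed one by one, Adam8 turned to 0.11 in neutrophil-like and -1.22 in macrophage-like cells, Timp2 to -0.0037 in macrophage-like and -0.0126 in NK cell-like cells, and in cluster 7 Timp1 to -0.13 and Timp3 to 0.14.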
